A study of Mus musculus with 2 samples.

Results

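Peaks of open chromatin were compared between 2 states of a mouse red cell model along long stretches of chromosomes 9 and 2. These stretches are the last part of chromosome 9, from 110 Mb to its end at 124.1 Mb, and chromosome 2 from 160 to 170 Mb, which stops short of the end of that chromosome at 181.7 Mb. Members were the DNase I hypersensitive peaks whose summit lay in either stretch, 4536 on chromosome 9 and 4970 on chromosome 2. Together they made up 9506 of the 400000 peaks in 4 deposited lists (2.38%). The stretches were chosen by the measured counts of peaks in the 2 states, so those counts are given as a description, without a test. Each was set beside the 30 Mb before it, which held 4354 peaks on chromosome 9 and 5803 on chromosome 2.

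G1E cells are a male erythroid progenitor line of strain 129 that lacks Gata1, and they were untreated. G1E-ER4 cells, also male and of strain 129, carry restored Gata1, and 10 nM beta-estradiol had been present for 24 h to induce their maturation. Effects of the line, the restored gene, the estradiol and the sample cannot be told apart. A state is represented by a single sample, deposited as a pair of lists numbered 1 and 2, and separate cultures are not mentioned for them, so their spread may be technical only.

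DNase I cuts DNA where nucleosomes are displaced, and sites cut often mark promoters and distal elements such as enhancers and insulators. GATA1 drives red cell maturation by binding GATA motifs, largely at distal elements, together with other erythroid factors. Promoters of housekeeping genes are open in most cells, while distal sites vary more between cell states. Of the genes described below, Itga9 encodes an integrin subunit that binds extracellular matrix, Sulf2 an enzyme that removes sulfate groups from heparan sulfate outside the cell, and Cdh22 a cadherin, a calcium-dependent adhesion protein.

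Every list held 100000 peaks, so a peak gained in one place displaces another elsewhere, and read depth is unknown. The strength of a peak is given as its percentile in its own list, with 100 for the strongest. Markers of the labelled cell type were mostly open: promoter peaks of all 4 lists were found at 9 of 10 erythroid progenitor genes. Over all 22208 genes of the genome the share was 52.6%. Among the other markers it was 1 of 5 T cell, 1 of 4 B cell and 1 of 5 monocyte and granulocyte genes. For the rest it was 1 of 4 hepatocyte, 2 of 3 neuronal and 0 of 3 pluripotency genes.

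The sequences below are the 201 bases centred on the summit of regions to which the results return. They are read from mm9 on the plus strand, and capitals mark matches on either strand to 4 GATA motifs, which are AGATAA, its variant AGATAG, the form TGATAA and its variant TGATAG. A region is called G1E-ER4-only when both G1E-ER4 lists and neither G1E list have a peak in it. The first pair are the strongest G1E-ER4-only regions of the stretches, in an intron of Trak1 at chr9:121326454-121326654 and between genes near Ncoa3 at chr2:165780442-165780642. The next 3 are the strongest such regions inside or within 10 kb of Itga9 (chr9:118512199-118512399, before the gene), Sulf2 (chr2:165915835-165916035, intron) and Cdh22 (chr2:164990026-164990226, intron) that did not touch an exon. The last pair lie in introns of Itga9 (chr9:118584028-118584228) and Sulf2 (chr2:165953736-165953936) and were open in all 4 lists.
Trak1, G1E-ER4-only: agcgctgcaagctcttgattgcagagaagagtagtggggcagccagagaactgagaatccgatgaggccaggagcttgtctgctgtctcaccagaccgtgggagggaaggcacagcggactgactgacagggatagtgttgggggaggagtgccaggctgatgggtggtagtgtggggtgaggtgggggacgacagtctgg
Ncoa3, G1E-ER4-only: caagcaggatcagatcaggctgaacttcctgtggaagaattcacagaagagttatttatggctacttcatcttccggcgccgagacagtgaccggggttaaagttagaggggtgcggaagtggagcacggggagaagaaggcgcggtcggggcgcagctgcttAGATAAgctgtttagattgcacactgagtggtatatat
Itga9, G1E-ER4-only: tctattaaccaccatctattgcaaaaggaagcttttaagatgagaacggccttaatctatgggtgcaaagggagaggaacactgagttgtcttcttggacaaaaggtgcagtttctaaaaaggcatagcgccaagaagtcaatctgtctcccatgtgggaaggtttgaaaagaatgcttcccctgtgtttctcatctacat
Sulf2, G1E-ER4-only: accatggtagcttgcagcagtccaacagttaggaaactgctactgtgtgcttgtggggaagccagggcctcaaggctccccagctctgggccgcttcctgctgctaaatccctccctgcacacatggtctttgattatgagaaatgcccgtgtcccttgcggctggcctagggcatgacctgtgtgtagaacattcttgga
Cdh22, G1E-ER4-only: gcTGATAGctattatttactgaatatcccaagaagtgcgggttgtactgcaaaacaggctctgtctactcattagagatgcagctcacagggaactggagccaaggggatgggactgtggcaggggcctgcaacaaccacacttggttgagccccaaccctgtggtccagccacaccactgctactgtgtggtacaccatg
Itga9, all lists: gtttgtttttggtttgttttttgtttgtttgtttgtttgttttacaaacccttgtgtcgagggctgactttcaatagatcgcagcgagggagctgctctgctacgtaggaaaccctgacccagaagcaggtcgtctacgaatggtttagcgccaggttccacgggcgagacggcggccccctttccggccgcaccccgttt
Sulf2, all lists: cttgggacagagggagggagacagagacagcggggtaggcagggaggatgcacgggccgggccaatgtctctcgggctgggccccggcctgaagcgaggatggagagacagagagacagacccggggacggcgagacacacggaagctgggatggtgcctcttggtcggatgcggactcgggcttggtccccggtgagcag
Of these 7 windows, the Ncoa3 and Cdh22 ones each held 1 GATA match, and the others held none of the 4 patterns. The Sulf2 window open in all lists was the richest in G and C (67.2%) and the G1E-ER4-only window before Itga9 the poorest (42.3%). Tags were 20 bases long, and tags that matched several places were kept at their best match, so the number of places of each 20-base word in mm9 was counted on both strands. In 6 of the 7 windows, 84.6 to 100% of the words occurred in 1 place. In the Itga9 window open in all lists only 31.3% did, and the most repeated word occurred in 80492 places.

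The end of chromosome 9 held close to 2 G1E-ER4 peaks for every G1E peak. Of G1E-ER4 peaks, list 1 held 1558 there and list 2 held 1440, while the G1E counts were 798 and 740. The lists of the states did not overlap. The ratio of the state means was 1.95-fold (log2 0.96 ± 0.11, SD over the 2 lists of each state), and the 4 pairings of a G1E-ER4 with a G1E list gave 1.80 to 2.11-fold. In the 30 Mb before it the counts were 1094 and 1094 against 1065 and 1101, a log2 ratio of 0.015 ± 0.034. Peaks also stood more densely at the end of the chromosome in both states: 111 and 102 per Mb in G1E-ER4 against 56.7 and 52.6 per Mb in G1E, against 35.5 to 36.7 per Mb before it. The density of protein-coding genes was 10.7 per Mb at the end and 9.40 per Mb before it.

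The excess was present in nearly every window of the chromosome 9 stretch. Of the 1 Mb windows with at least 20 peaks, 14 of 14 had more peaks in both G1E-ER4 lists than in both G1E lists, where 19.9% of 1837 such windows of the genome did. These windows chose the stretch, so nothing is read from their share. Their log2 ratios ran from 0.62 to 2.0 with a median of 1.02. The short last window, from 124 Mb, held only 7 peaks, 2 and 1 in G1E-ER4 against 0 and 4 in G1E. The highest value came from the window at 112 Mb with only 20 peaks in all. In the 30 Mb before, 3 of 27 windows were higher and 1 was lower, where 21.0% of windows of the genome were lower.

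The boundary on chromosome 9 was sharp at this scale. The window just outside, from 109 to 110 Mb, had 40 and 34 peaks in G1E-ER4 against 31 and 41 in G1E. The window just inside, from 110 to 111 Mb, had 229 and 193 against 144 and 131. A single step fitted to the share of G1E-ER4 peaks in 1 Mb windows fell at 110 Mb. It did so in 3 of the 4 list pairings and fell at 111 Mb in the fourth, G1E-ER4 list 2 against G1E list 1. The gain in log likelihood was 115 with the lists of each state pooled and 43.9 to 75.2 in the 4 list pairings. Between the 2 G1E-ER4 lists it was 6.83 and between the 2 G1E lists 6.04. Counts of this kind chose the stretch, so the gains only describe the step. Among the 266 windows of 10 Mb in the genome, the window from 110 Mb on chromosome 9 ranked 3 from the highest (log2 ratio 1.03) and the one from 120 Mb ranked 6 (0.86), where the median was -0.039.

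**Figure D1:**
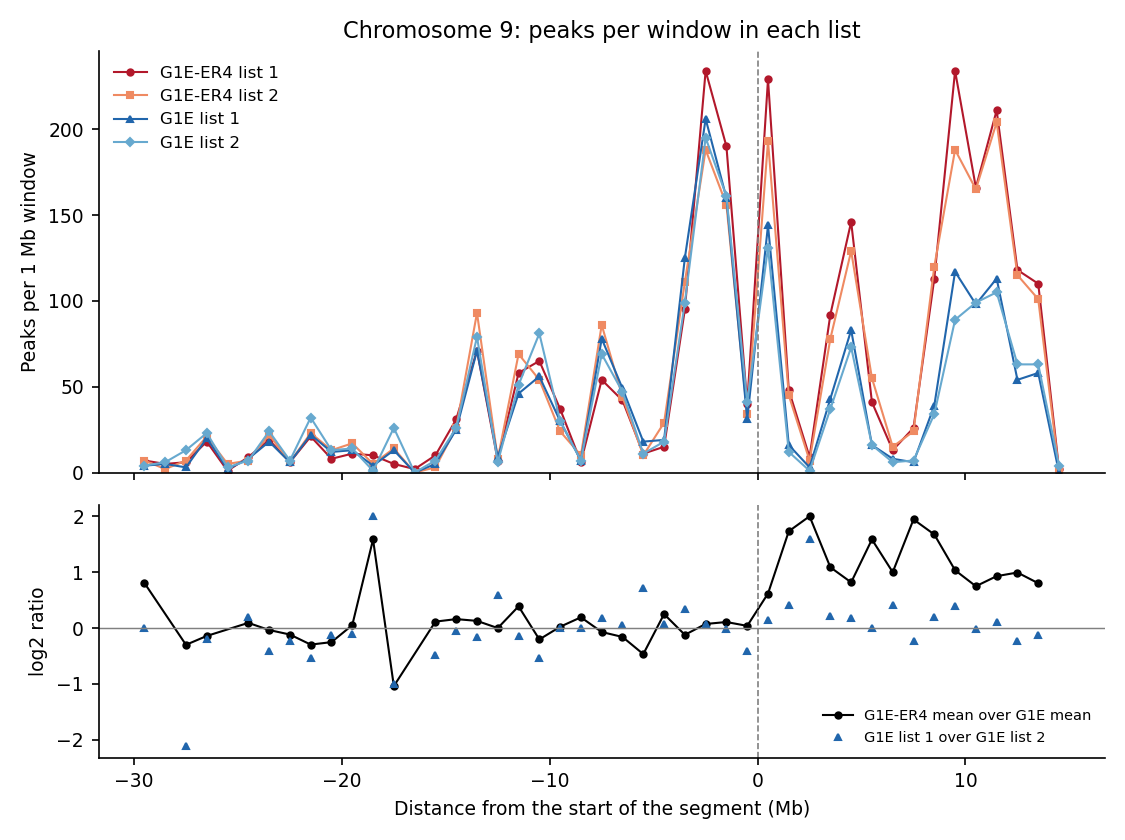
Peaks per 1 Mb window on chromosome 9 in each of the 4 lists (top) and log2 ratios in windows with at least 20 peaks (bottom), against distance in Mb from the start of the stretch (dashed line). To the right of the line both G1E-ER4 lists lie above both G1E lists in 14 of 14 windows, while the ratio of the G1E lists to each other (triangles) scatters around 0.

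Chromosome 2 from 160 to 170 Mb had a smaller and less even excess. The G1E-ER4 lists held 1605 and 1288 peaks there and the G1E lists 1229 and 848. The lists did not overlap, but G1E-ER4 list 2 and G1E list 1 lay close together. The ratio of the means was 1.39-fold (log2 0.48 ± 0.44, SD), and the 4 pairings ran from 1.05 to 1.89-fold. Without G1E list 1 the log2 ratio was 0.77, and without G1E list 2 it was 0.24. In the 30 Mb before, the counts were 1470 and 1511 against 1427 and 1395 (log2 ratio 0.079 ± 0.036).

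From 160 to 167 Mb the states separated. This division was made after the values were seen. The counts were 1000 and 823 in G1E-ER4 against 618 and 532 in G1E, 1.59-fold (log2 0.66 ± 0.25, SD), and 6 of 7 windows had both G1E-ER4 lists above both G1E lists. Sulf2, Cdh22, Ncoa3, Zmynd8, Eya2 and Prex1 all lie in this piece. From 167 to 170 Mb the lists overlapped, with 605 and 465 peaks in G1E-ER4 against 611 and 316 in G1E, and none of 3 windows separated the states. G1E list 1 was the highest of all.

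The 2 lists of a state parted from each other beyond about 168 Mb. G1E list 1 held 1412 peaks from 170 Mb to the end of chromosome 2 and G1E list 2 held 594, with 1255 and 967 in the G1E-ER4 lists. A fit of 1 raised or lowered interval on chromosome 2 placed it from 159 to 167 Mb with the lists of each state pooled. The gain in log likelihood was 40.8. The same fit between the 2 G1E lists placed an interval from 168 to 181 Mb with a gain of 131, in which list 1 exceeded list 2 by a log2 ratio of 1.41. Between the 2 G1E-ER4 lists the interval was 168 to 178 Mb with a gain of 26.9. In the list pairings the interval was 160 to 167 Mb for list 1 of both states and 160 to 181 Mb for G1E-ER4 list 1 against G1E list 2. The pairings with G1E-ER4 list 2 gave intervals with fewer G1E-ER4 peaks, 168 to 180 Mb and 175 to 177 Mb. Without G1E-ER4 list 1 the fitted interval started at 175 Mb, and without G1E list 1 it started at 131 Mb.

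The windows at the set borders of chromosome 2 held few peaks at one side. From 159 to 160 Mb there were 0 and 5 peaks in G1E-ER4 against 2 and 1 in G1E, and from 160 to 161 Mb 76 and 59 against 51 and 48. From 169 to 170 Mb there were 84 and 62 against 97 and 35, and from 170 to 171 Mb 107 and 61 against 112 and 36. The upper border thus lies inside the region where lists of the same state differ. As 1 window of 10 Mb, the stretch ranked 19 of 266.

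**Figure D2:**
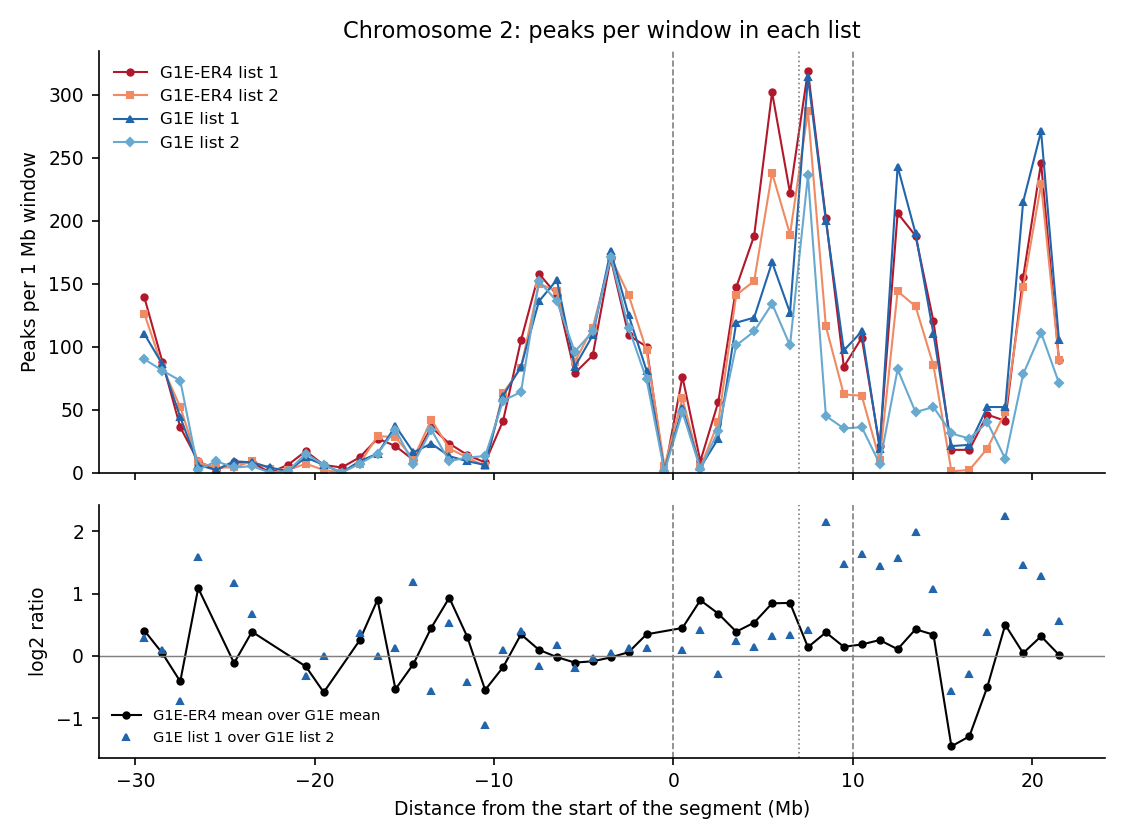
Peaks per 1 Mb window on chromosome 2 in each list (top) and log2 ratios in windows with at least 20 peaks (bottom), against distance in Mb from 160 Mb; dashed lines mark 160 and 170 Mb and the dotted line 167 Mb. Between the first dashed line and the dotted line the G1E-ER4 lists lie above the G1E lists in 6 of 7 windows, and beyond the second dashed line G1E list 1 holds 1412 peaks and G1E list 2 holds 594 (triangles, their log2 ratio).

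Distal peaks carried most of the difference. A peak counted as promoter when its summit lay within 1000 bp of an annotated start of a protein-coding gene. At the end of chromosome 9, promoter peaks numbered 138 and 162 in G1E-ER4 against 130 and 114 in G1E, 1.23-fold (log2 0.30 ± 0.21, SD). Distal peaks numbered 1420 and 1278 against 668 and 626, 2.09-fold (log2 1.06 ± 0.13, SD). Promoters were therefore a smaller share of the G1E-ER4 peaks, 8.86% (Wilson 95% interval 7.55 to 10.4%) and 11.2% (9.72 to 13.0%), than of the G1E peaks, 16.3% (13.9 to 19.0%) and 15.4% (13.0 to 18.2%). Intervals cover the counting of peaks only. Before 110 Mb the promoter share was 20.0 to 23.1% in the 4 lists, with no order by state.

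On chromosome 2 from 160 to 170 Mb the promoter peaks of the states overlapped, with 141 and 186 in G1E-ER4 against 156 and 131 in G1E. Distal peaks numbered 1464 and 1102 against 1073 and 717, 1.43-fold (log2 0.52 ± 0.50, SD). Promoters differed from distal peaks by -0.33 ± 0.62 in log2 ratio, within the spread between lists, and without G1E-ER4 list 1 the difference turned to 0.074. From 160 to 167 Mb the counts were 120 and 146 against 115 and 103 at promoters, 1.22-fold, and 880 and 677 against 503 and 429 at distal sites, 1.67-fold. On chromosome 9 the promoter and distal ratios differed by -0.76 ± 0.28.

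**Figure D3:**
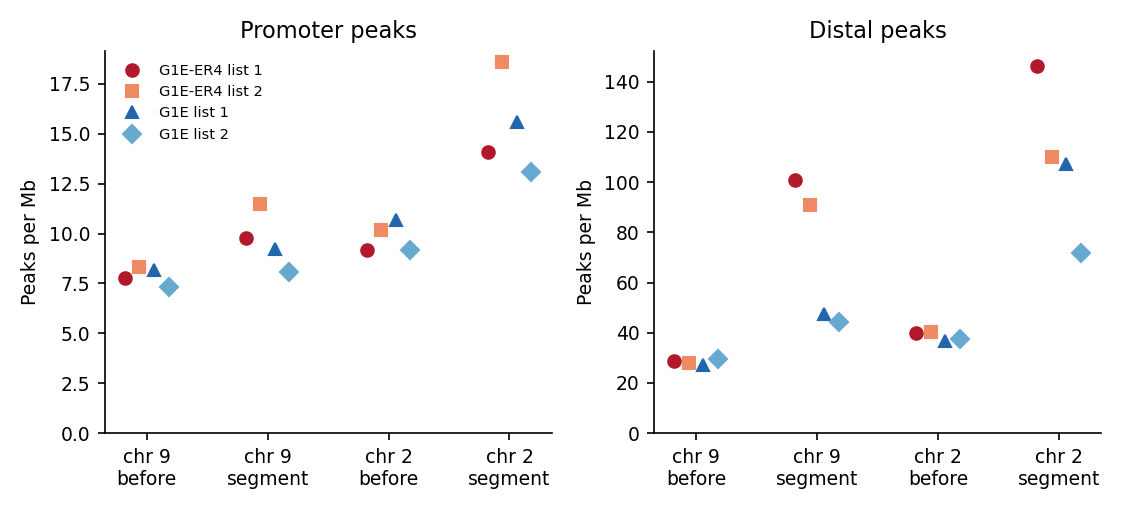
Promoter peaks (left) and distal peaks (right) per Mb in each list for the 2 stretches and the 30 Mb before each, 1 point per list. Distal density on chromosome 9 is 101 and 90.8 per Mb in G1E-ER4 against 47.5 and 44.5 per Mb in G1E, while the promoter values of the states lie close together.

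Weak peaks were in greater excess than strong ones on chromosome 9. By percentile in their list, peaks up to percentile 75 had ratios of 2.04-fold (percentiles 0 to 25), 2.25-fold (25 to 50) and 2.09-fold (50 to 75). Peaks from percentile 75 to 90 had 1.44-fold, and those above 90 had 1.33-fold, with 127 and 91 peaks in G1E-ER4 against 84 and 80 in G1E. The lists of the states did not overlap in any of these 5 classes, as in 19.9% of 1 Mb windows of the genome. The classes divide the same peaks that chose the stretch, so nothing is read from this. Among promoter peaks of the top 25% the counts were 71 and 81 against 74 and 71, 1.05-fold and overlapping, while distal peaks of the top 25% numbered 209 and 166 against 119 and 114, 1.61-fold. Because the lists are of fixed length, a ratio in a weak class also depends on where each list ends. On chromosome 2 the ratios ran from 1.18-fold (0 to 25) to 1.76-fold (50 to 75) with no such order. At the end of chromosome 9, peaks were wider than over the genome in G1E-ER4 and narrower in G1E. The median peak there spanned 653 bp in G1E-ER4 list 1 and 900 bp in list 2, above the 579 and 836 bp of those lists over the genome. In G1E it spanned 495 bp in list 1 and 603 bp in list 2, below their 520 and 646 bp. On chromosome 2 from 160 to 170 Mb the widths were 697 and 952 bp in G1E-ER4, and 558 and 646 bp in G1E.

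**Figure D4:**
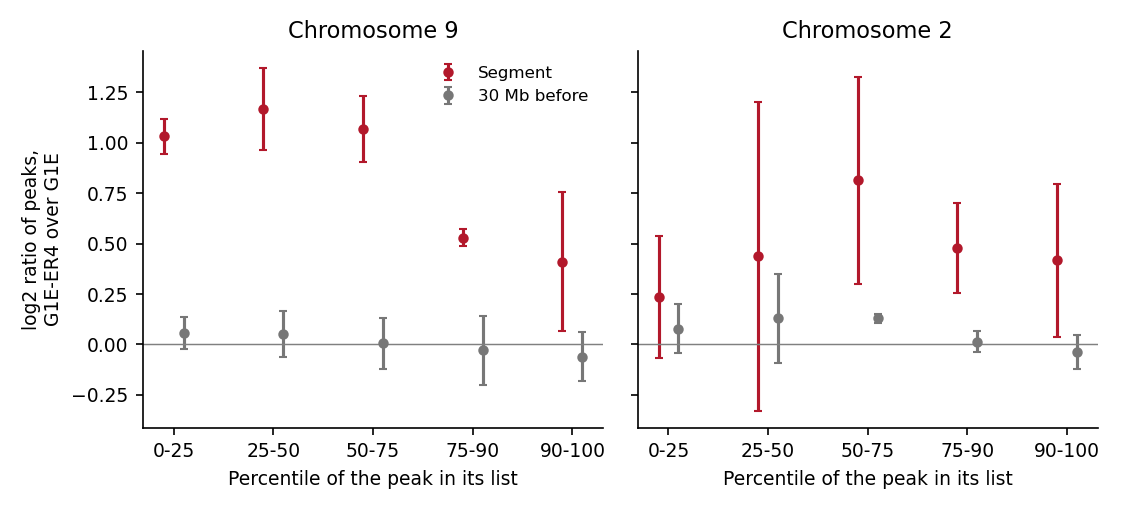
Log2 ratio of peak numbers, G1E-ER4 over G1E, by percentile class of the peak in its list, for each stretch (red) and the 30 Mb before it (grey); bars are the SD over the 2 lists of each state. On chromosome 9 the first 3 classes lie near 1 and the upper 2 near 0.5, and the grey points lie near 0 on both chromosomes.

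Sites that all 4 lists shared ranked higher in G1E-ER4 cells more often in both stretches than over the genome. Peaks sharing 1 bp or more were joined into regions, and the percentile of a region in a list was that of its strongest peak there. A shared region counted as higher when its percentile in both G1E-ER4 lists exceeded that in both G1E lists. More peaks of a list in a region can raise this value. How far it follows from the peak counts that chose the stretches was not tested. This held for 131 of 292 shared regions at the end of chromosome 9 (44.9%), and 17 were lower. It held for 119 of 311 on chromosome 2 from 160 to 170 Mb (38.3%), and 16 were lower. Over the genome 19.0% of shared regions were higher and 16.2% lower. In the 30 Mb before, 61 of 352 (17.3%) on chromosome 9 and 92 of 471 (19.5%) on chromosome 2 were higher. The median shift was +4.83 percentile points on chromosome 9 and +4.24 on chromosome 2, against -0.56 and -0.25 before them. Unlike the peak counts, this held in both pieces of chromosome 2, with 74 of 196 shared regions higher from 160 to 167 Mb and 45 of 115 from 167 to 170 Mb. Promoters took part: 31 of 77 shared promoter regions on chromosome 9 were higher and 3 lower, with a median shift of +2.08 points. Of 215 distal ones, 100 were higher and 14 lower, with a median shift of +6.99 points. Over the genome 14.7% of shared promoter regions were higher and 14.1% lower. For shared distal regions of the genome these were 21.3% and 17.4%.

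Many of the G1E-ER4 peaks lay in 1 list only. Merging gave 2331 regions at the end of chromosome 9, of which 183 were G1E-ER4-only (7.85%, Wilson 95% interval 6.83 to 9.01%) and 19 were G1E-only (0.815%). Over the genome 2.35% of 188044 regions were G1E-ER4-only and 3.99% were G1E-only. A further 671 regions held a peak of G1E-ER4 list 1 alone and 612 of list 2 alone, against 115 and 106 for the G1E lists. Over the genome these counts were 33616 and 30099 against 20388 and 25886. Regions of a single list made up 64.5% of the regions here and 58.5% of those of the genome. In the 30 Mb before, 35 of 1972 regions were G1E-ER4-only and 68 were G1E-only. On chromosome 2 from 160 to 170 Mb, 119 of 2192 regions were G1E-ER4-only (5.43%) and 20 were G1E-only, with 83 and 85 of 2645 before it. From 160 to 167 Mb there were 95 of 1363 (6.97%) and from 167 to 170 Mb 24 of 829 (2.90%).

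G1E-ER4-only regions also outnumbered G1E-only ones when each list was shortened. With the top 50% of each list, 61 regions were seen in both G1E-ER4 lists alone and 13 in both G1E lists alone at the end of chromosome 9, and 65 and 4 on chromosome 2, where 2.59% and 4.78% of regions of the genome were in these classes. With the top 20000 peaks the counts were 29 and 5 on chromosome 9 and 31 and 5 on chromosome 2, against 3.36% and 4.06% over the genome. The members that carry these calls in the full lists were of middling rank, with median percentiles of 38.9 on chromosome 9 and 39.7 on chromosome 2.

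G1E-ER4-only regions lay mostly in introns. On chromosome 9, 102 of the 183 G1E-ER4-only regions were intronic, 51 lay between genes, 20 touched exons and 10 were at promoters. On chromosome 2 the numbers were 61, 41, 11 and 6 of 119. The strongest on chromosome 9 was chr9:121324195-121327086, in an intron of Trak1, which encodes an adaptor that links mitochondria to motor proteins, with percentiles of 89.85 and 89.99. The next were chr9:111024755-111025582 in an intron of Lrrfip2 (82.2 and 80.01) and chr9:118497841-118498955, 17237 bp from the start of Itga9 (75.6 and 68.3). The strongest on chromosome 2 was chr2:165780104-165781292, 37594 bp from Ncoa3, a coactivator of nuclear receptors, with percentiles of 82.4 and 89.2. A neighbour at chr2:165776934-165778245 (72.0 and 77.0) and chr2:163211371-163213804 in an intron of Jph2 (67.03 and 81.8), a gene for a junctional membrane protein, followed.

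G1E-only regions were few, and the stronger ones lay on chromosome 9. The strongest on chromosome 9 was chr9:122967498-122968329 in an intron of Tgm4, a transglutaminase gene, at percentiles 71.7 and 86.7 in the G1E lists. It was followed by chr9:110699219-110700205 at the promoter of Prss42, a serine protease gene (84.1 and 68.2), and chr9:113170308-113170819, far from any start, with Pdcd6ip the nearest (65.9 and 85.9). On chromosome 2 the strongest were chr2:166792026-166792822 in an intron of Stau1, an RNA-binding protein gene (68.9 and 75.5), chr2:163777498-163777901 near Rims4 (56.9 and 58.8) and chr2:160148856-160149273 in an intron of Gm826 (39.3 and 75.4).

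The excess was spread over many genes. At the end of chromosome 9, 75 of the 147 genes with a region within 50000 bp of a start had more G1E-ER4-only than G1E-only regions, and 6 had fewer. On chromosome 2 from 160 to 170 Mb these were 45 and 7 of 126 genes, where 11.8% and 18.6% of 18559 genes of the genome had more and fewer. Itga9 led chromosome 9 with 11 G1E-ER4-only regions among its 69. Among the genes after it were Trak1 (7 of 46), Cmtm6, whose product stabilises an immune checkpoint ligand (6 of 20), the phosphatase gene Ctdspl (6 of 36) and Ulk4, a kinase-like gene (5 of 57). None of these 5 had a G1E-only region. Sulf2 led chromosome 2 with 12 of 55. After it came Cdh22 (9 of 52), Ncoa3 (6 of 39), Prex1, an activator of Rac signalling (6 of 80), Zmynd8, a chromatin reader (5 of 41), and Eya2, a transcriptional coactivator (4 of 70), and Cdh22, Ncoa3 and Prex1 each had 1 G1E-only region. The genes with most G1E-only regions, 2 each, were the chemokine receptor-like genes Ccr1l1 and Ccrl2 on chromosome 9, which had no G1E-ER4-only region, and Nfatc2, Stau1 and Stk4 on chromosome 2, which had 3, 2 and 0.

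At promoters, most genes of the stretches were open in both states, as over the genome. Of 151 protein-coding genes at the end of chromosome 9, 88 had a promoter peak in all 4 lists, 13 in both G1E-ER4 lists alone (8.61%) and 0 in both G1E lists alone. Over the genome, 52.6% of 22208 genes were open in all lists, 1.18% in both G1E-ER4 lists alone and 0.802% in both G1E lists alone. On chromosome 2 from 160 to 170 Mb, 87 of 137 genes were open in all lists, 6 in both G1E-ER4 lists alone (4.38%) and 0 in both G1E lists alone. In the 30 Mb before, 2 of 282 and 3 of 316 genes were open in G1E-ER4 alone.

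The genes of the G1E-ER4-only promoters, named after their values were seen, have roles in several tissues. On chromosome 9 they were the gut and brain peptide gene Cck, Clec3b, Cdcp1, Dclk3, Kbtbd5, Plcd1, Prss43, Prss46, Stac, Susd5, Tgm4, Zfp167 and 1700048O20Rik. On chromosome 2 they were Sdc4, which encodes a heparan sulfate proteoglycan of the cell surface, the potassium channel gene Kcns1, Wfdc6a, Wisp2, Zfp334 and Gm17544. The peaks were weak to middling, from percentile 0.58 to 72.3, and the mean of the 2 lists exceeded 50 for 6 of the 19 genes. The highest were Prss46 (60.1 and 67.4), Sdc4 (72.3 and 46.5) and Clec3b (53.8 and 58.7).

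Itga9 (ENSMUSG00000039115.7, chr9:118515808-118810121, plus strand, 294 kb) had 27 and 33 peaks inside the gene in G1E-ER4 lists 1 and 2, against 11 and 6 in G1E. The ratio was 3.53-fold. The lists did not overlap, as in 14 of 14 windows of 1 Mb of this stretch and 19.9% of such windows of the genome. The gene was picked as rich in G1E-ER4-only regions, so nothing is read from this. Its promoter peak had percentiles 72.6 and 78.6 in G1E-ER4 and 46.4 in G1E list 1, and G1E list 2 had none. Of its 11 G1E-ER4-only regions, 6 lay inside the gene, all in introns, and 1 lay within 10 kb before its start, chr9:118510057-118513949 at 83.7 and 54.3. Those inside reached at most 57.7 in either list, from chr9:118520106-118521198 (52.7 and 16.1) to chr9:118663223-118663797 (11.0 and 4.36). The 1 region of all 4 lists, chr9:118583509-118584626, stood at 99.9, 56.4, 99.5 and 99.6 in G1E-ER4 lists 1 and 2 and G1E lists 1 and 2, and it is the one printed above whose words mostly recur in the genome. Its standing differs between the G1E-ER4 lists and not by state.

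Sulf2 (ENSMUSG00000006800.7, chr2:165898589-165981163, minus strand, 82.6 kb) had 31 and 22 peaks in G1E-ER4 against 14 and 9 in G1E, 2.30-fold. Its promoter region stood at 83.8 and 83.1 in G1E-ER4 and 69.9 in G1E list 1, again with no peak in G1E list 2. All 10 G1E-ER4-only regions inside the gene lay in its introns or touched an exon, and 8 of them were intronic. The highest values were at chr2:165922815-165924452 (82.5 and 31.9) and chr2:165914534-165918052 (57.9 and 66.6), the latter printed above. Both introns with a region of all 4 lists were strongly open. The region at chr2:165953221-165954568 stood at 95.2 and 93.1 in G1E-ER4 against 93.6 and 96.8 in G1E, without order by state, while chr2:165904083-165912165 stood at 89.9 and 91.0 against 74.8 and 73.9.

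Cdh22 (ENSMUSG00000053166.7, chr2:164937007-165060353, minus strand, 123 kb) had 53 and 32 peaks in G1E-ER4 against 22 and 18 in G1E, 2.13-fold. Its promoter was open in every list, in a region of 8269 bp at 86.7 and 88.5 in G1E-ER4 against 82.8 and 64.7 in G1E. Inside the gene lay 10 G1E-ER4-only regions and 1 G1E-only region, chr2:164984008-164984983 at 10.1 and 53.9. Of the G1E-ER4-only regions, chr2:164989772-164991857 stood at 67.1 and 49.5 and chr2:165029982-165032273 at 48.8 and 64.1. The region at the far end of the gene, chr2:164933072-164941193, was in all lists and stood at 84.8 and 84.2 in G1E-ER4 against 39.7 and 36.3 in G1E. Both G1E-ER4 lists lay above both G1E lists there, as in 19.0% of shared regions of the genome. The strongest peaks of this wide region did not share 1 summit. In G1E-ER4 lists 1 and 2 the summits were at 164939166 and 164937879, and in G1E lists 1 and 2 at 164936896 and 164937934. The values are thus those of the region and not of a single site.

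**Figure D5:**
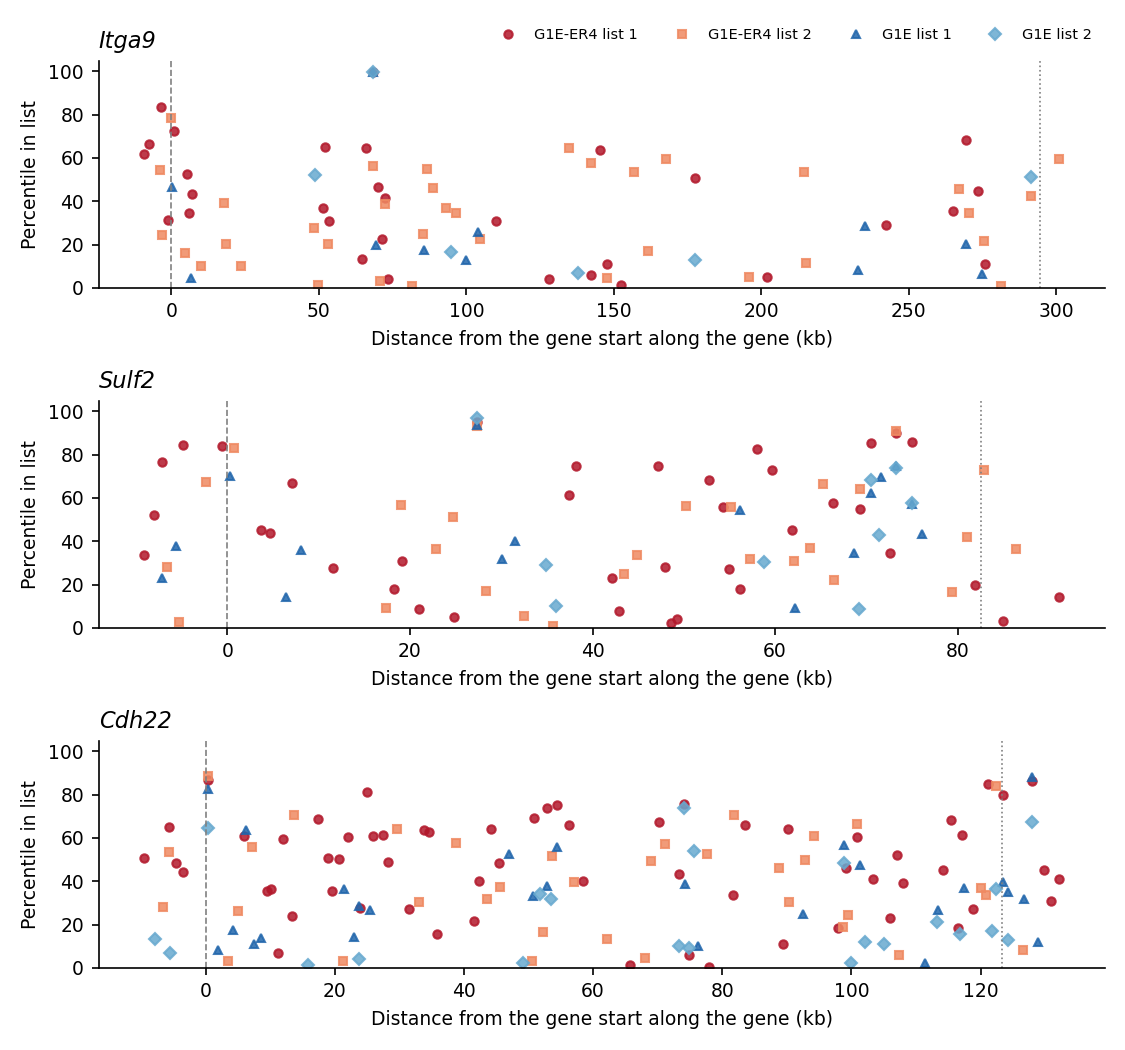
Percentile of each peak in its list against the distance of its summit from the gene start in kb, along Itga9, Sulf2 and Cdh22, with 10 kb on either side; dashed and dotted lines mark the start and the end of each gene. G1E-ER4 peaks (red circles and orange squares) are spread along all 3 genes, and G1E peaks (blue) are fewer.

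The other members of their gene families are given as counts. Itga9, Sulf2 and Cdh22 were picked as genes rich in G1E-ER4-only regions, so their large share of each family's regions follows from that choice. Among 26 integrin subunit genes, 5 had more G1E-ER4-only than G1E-only regions and 9 had fewer, and 11 of the family's 18 G1E-ER4-only regions were at Itga9. Itgb1, which encodes the partner chain of the Itga9 product on chromosome 8, had 0 G1E-ER4-only regions and 1 G1E-only region. Among 27 genes that make or edit heparan sulfate, 3 had more and 6 fewer, and 12 of 17 such regions were at Sulf2. Among 22 classical cadherin genes, 1 had more and 1 fewer, and all 9 G1E-ER4-only regions were at Cdh22. The median difference per gene was 0 in each family.

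Blood and growth genes were given beside all genes of each stretch, and nothing particular to them is read from their counts. Of 12 such genes at the end of chromosome 9, 8 had more G1E-ER4-only than G1E-only regions and 0 had fewer, with 16 regions against 1 in all. Over all genes of that stretch 75 of 147 had more and 6 had fewer. Promoters were open in all lists at 11 of the 12, beside 88 of the 151 genes of that stretch. In 6 of these 11 the promoter ranked higher in both G1E-ER4 lists and in 0 it ranked lower, beside 31 and 3 of the 77 shared promoter regions of the stretch. Nbeal2, needed for platelet granules, stood at 99.6 and 99.1 in G1E-ER4 against 94.7 and 96.7 in G1E. Acvr2b, an activin receptor gene, stood at 98.9 and 99.2 against 93.9 and 95.7. Pth1r, the parathyroid hormone receptor gene, stood at 90.8 and 84.9 against 70.2 and 60.9.

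Of 20 blood and growth genes on chromosome 2 from 160 to 170 Mb, 10 had more G1E-ER4-only regions and 1, the Hippo pathway kinase gene Stk4, had fewer, with 25 regions against 8, beside 45 and 7 of the 126 genes of that stretch. Promoters were open in all lists at 17 of the 20, beside 87 of the 137 genes of that stretch. Of these 17, 6 ranked higher in both G1E-ER4 lists and 1 ranked lower, beside 23 and 5 of the 75 shared promoter regions there. Ada, the adenosine deaminase gene, stood at 85.3 and 92.3 against 79.2 and 79.1. L3mbtl1, a chromatin compaction gene, stood at 48.5 and 71.1 against 34.0 and 47.6. Prex1 was the one that ranked lower, at 83.2 and 87.0 against 92.5 and 91.1.

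Of the 12 chemokine receptor genes listed for the end of chromosome 9, 3 had more G1E-ER4-only than G1E-only regions and 3 fewer, with 4 regions against 5. Over all genes of that stretch 75 of 147 had more and 6 had fewer, and over the genome 11.8% and 18.6%. Nothing particular to these few genes is read from their counts. Promoters were open in all lists at 2 of the 12, beside 88 of the 151 genes of the stretch. Ccrl2 stood at 96.3 and 93.9 in G1E-ER4 against 90.1 and 93.2 in G1E, and Ccr9, a receptor of gut-homing lymphocytes, at 72.4 and 87.9 against 85.6 and 65.5. At 6 of the 12, among them Ccr1, Ccr2 and Ccr3, no list had a promoter peak.

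GATA patterns at the summits of the G1E-ER4-only regions of the stretches were not separated in frequency from those of all regions there. In windows of 201 bases, a GATA pattern was found in 54 of 183 G1E-ER4-only regions at the end of chromosome 9 (29.5%, Wilson 95% interval 23.4 to 36.5%) and in 41 of 119 on chromosome 2 from 160 to 170 Mb (34.5%, 26.5 to 43.4%). In regions of any class the share was 27.2% at the end of chromosome 9 and 27.6% on chromosome 2 from 160 to 170 Mb, inside these intervals. Over the whole genome the share was higher in 4412 G1E-ER4-only regions, 38.8%, than in regions of any class, 30.5%. In G1E-only regions of the genome it was 35.7%. The KLF pattern CCNCNCCC was found in 40.8% and 39.2% of the shared regions of the stretches and in 42.7% of those of the genome, on either strand. The 20-base word at the summit occurred in 1 place of mm9 for 92.0% of the regions at the end of chromosome 9. On chromosome 2 from 160 to 170 Mb this share was 92.8%. Among G1E-ER4-only regions it was 95.6% on chromosome 9 and 88.2% on chromosome 2. For the shared regions it was 94.5% and 97.4%.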

How the data were processed

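The data were 4 deposited DNase-seq peak lists, 2 per state, from 2 samples. Per the series design text, 20-base tags were aligned to mm9 with Bowtie, a tag matching several places stayed at its best match, F-seq made a density of them, and a gamma fit gave peaks per list. Depth, versions and threshold are not stated. Per that text, the signal deposited by the authors for each peak is this density. Its scaling between lists is unknown, so only percentiles within a list were used.

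Peaks were placed by summit, counted in 1 Mb windows, and steps were fitted by binomial likelihood. Peaks sharing 1 bp or more formed regions. Regions were assigned to their nearest start if it lay within 50000 bp (GENCODE vM1 on mm9, all transcripts of protein-coding genes). Ratios are log2 of state means, with the SD from the 2 lists of each state. Named are Itga9, Sulf2 and Cdh22, the 6 and 3 genes with most G1E-ER4-only and G1E-only regions per stretch (on chromosome 9 only Ccr1l1 and Ccrl2, the rest being tied), the 3 strongest regions of each class and members of the lists. Of the 6 leading genes of chromosome 9, 1 is not reported here. Members and lists were chosen with earlier results of these data known. Steps and classes were tested on simulated data. The simulated steps held no difference between lists of a state, which chromosome 2 shows beyond about 168 Mb. They therefore do not bear on the chromosome 2 fit. Python 3.11.15, pandas 2.3.3, numpy 2.4.6 and samtools 1.23.1 were used.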

Additional observations from a re-analysis of the deposited data

How the results depend on the processing

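Of 80 alternative values, 58 stayed within the spread of the reported one (1 SD, or 1.5 times for counts), 21 moved further and 1 changed sign. On chromosome 2 this spread was wide. It was 0.44 for a log2 ratio of 0.48, 0.62 for a promoter to distal difference of -0.33, and 7.2 Mb for the step. Staying within it there says little. Some alternatives also took the same peaks, as on chromosome 9 the stretch from the fitted step, with the same 0.96. The chromosome 9 log2 ratio, 0.96 in all peaks, was 0.80 in the top 50% of each list, 0.48 in the top 20000 peaks and 0.48 in the top 25%, which was chosen after seeing the data, and 0.91 to 1.02 with any one list left out. The chromosome 2 log2 ratio was 0.24 to 0.77 with any one list left out. The chromosome 9 step stayed between 110 and 111 Mb. The chromosome 2 step moved to 175 Mb in the top 20000 peaks and lay between 131 and 175 Mb with one list left out, 131 Mb without G1E list 1 and 175 Mb without G1E-ER4 list 1. The promoter to distal difference was -0.96 to -0.57 on chromosome 9 and -0.74 to 0.074 on chromosome 2 with one list left out, and 0.074 was the value without G1E-ER4 list 1. G1E-ER4-only regions numbered 61 and 29 on chromosome 9, 65 and 31 on chromosome 2, and 8 and 2 at the 3 genes (32 in the full lists) in the top 50% and the top 20000 peaks, which hold fewer peaks. Overlap of 50% of both peaks gave 20 at the 3 genes. With one list left out these counts were 231 to 940, 177 to 779 and 36 to 91. The high ends are without a G1E-ER4 list, where a lone list makes the call, and without a G1E list the counts were 231 and 233, 207 and 177, and 39 and 36. No paired analysis was possible because each state is 1 sample, and the states share 1 replicate number. Depth is unknown, so weak peaks in a single list cannot be told from chance calls here.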
